A study of Homo sapiens with 12 samples.

Results

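Farage is an established human line of diffuse large B cell lymphoma, a cancer of mature B lymphocytes, and morusinol is a prenylated flavonoid of mulberry root bark. The response of this line to morusinol was followed across genes in 3 control and 3 morusinol libraries by FPKM, the fragments counted on a gene relative to its length and to the depth of the library. A gene was kept where 3 or more of these 6 libraries gave it 1 FPKM or above, which left 15207 of the 61466 genes in the table. The study gave vehicle or morusinol for 12 h to Farage and to a second line of the same lymphoma, SU-DHL-8, with 3 libraries in each of the 4 groups. By the labels, Farage control cells are wild type and were given vehicle, and Farage morusinol cells are the same line given morusinol, with lymph node as the tissue of both. No dose is stated, the labels name no engineered allele, and nothing says that the replicates were separate cultures, so the p-values measure the spread between these libraries only, which may be technical.

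Of the kept genes, 11796 reached 1 FPKM in all 6 libraries. Another 1293 reached it in exactly 3, with a median over these genes of 1.07 for the mean FPKM, and 1274 genes just outside reached it in exactly 2, with a median of 0.835. A total of 254 genes were kept through the 3 morusinol libraries alone and 327 through the 3 control libraries alone, and such genes had to differ between the groups.

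Several of the programs described below are well known. Lack of amino acids, stress of the endoplasmic reticulum (ER) and other insults lead kinases to phosphorylate the initiation factor eIF2, which lowers translation in general but raises that of the transcription factor ATF4. ATF4 and its partners act through a composite element, CARE, and drive genes for amino acid synthesis, amino acid import and tRNA charging. Unfolded proteins in the ER also act through ATF6 and XBP1 on ER stress response elements (ERSE), heat shock factors act through heat shock elements, serum response factor (SRF) acts through CArG boxes at actin genes, and SREBP factors drive cholesterol and fatty acid synthesis when sterols are short.

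Promoter stretches that hold these elements are shown for genes that rose or fell in Farage. They are RefSeq sequences (GRCh38.p14, 5′ to 3′ on the strand of the gene), they end before the annotated start of transcription, and capitals mark the match. The first 5 hold CARE, searched as TGATGNAA on both strands, and belong to genes of the ATF4 program.
ATF3 (chr1:212565160-212565279): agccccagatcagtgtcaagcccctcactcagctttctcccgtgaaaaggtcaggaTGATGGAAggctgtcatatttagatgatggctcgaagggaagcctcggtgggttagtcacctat
CHAC1 (chr15:40953221-40953340): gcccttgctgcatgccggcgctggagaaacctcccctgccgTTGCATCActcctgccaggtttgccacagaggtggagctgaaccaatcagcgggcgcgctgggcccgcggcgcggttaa
ASNS (chr7:97872413-97872532): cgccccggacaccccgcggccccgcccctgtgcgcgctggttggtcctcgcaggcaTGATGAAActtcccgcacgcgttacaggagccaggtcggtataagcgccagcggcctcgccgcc
GOT1 (chr10:99430755-99430874): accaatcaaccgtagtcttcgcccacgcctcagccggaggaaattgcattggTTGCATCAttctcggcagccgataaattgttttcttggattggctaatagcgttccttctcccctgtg
AARS1 (chr16:70289630-70289749): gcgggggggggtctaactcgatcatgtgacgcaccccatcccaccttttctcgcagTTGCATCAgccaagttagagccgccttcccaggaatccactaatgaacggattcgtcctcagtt
The next 3 hold ERSE, searched as CCAAT and CCACG with 9 bases between, and belong to ER chaperones.
HSPA5 (chr9:125241344-125241463): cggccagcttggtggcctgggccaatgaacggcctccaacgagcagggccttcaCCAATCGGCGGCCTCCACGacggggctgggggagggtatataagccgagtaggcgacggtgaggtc
CALR (chr19:12938359-12938478): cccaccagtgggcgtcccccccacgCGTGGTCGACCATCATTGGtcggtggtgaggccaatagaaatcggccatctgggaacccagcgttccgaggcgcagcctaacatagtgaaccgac
HSP90B1 (chr12:103930196-103930359): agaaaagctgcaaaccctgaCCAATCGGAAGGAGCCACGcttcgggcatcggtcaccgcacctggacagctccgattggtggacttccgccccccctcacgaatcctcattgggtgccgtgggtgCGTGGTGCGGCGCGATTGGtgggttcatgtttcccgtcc
HSPA8, a heat shock protein of the cytosol, holds 2 heat shock elements, searched as GAA, TTC and GAA with 2 bases between each, on both strands.
HSPA8 (chr11:123062159-123062386): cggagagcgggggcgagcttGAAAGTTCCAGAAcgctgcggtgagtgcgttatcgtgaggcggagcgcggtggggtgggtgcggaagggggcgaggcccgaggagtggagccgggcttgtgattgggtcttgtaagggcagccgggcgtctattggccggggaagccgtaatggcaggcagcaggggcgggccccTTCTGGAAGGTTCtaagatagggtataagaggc
ACTG1 (gamma-actin) holds 1 CArG box and SRF holds 2, the last of which ends at the start of transcription.
ACTG1 (chr17:81512829-81512948): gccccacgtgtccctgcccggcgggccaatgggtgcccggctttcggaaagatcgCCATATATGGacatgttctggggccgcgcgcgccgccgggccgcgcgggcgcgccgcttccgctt
SRF (chr6:43171149-43171268): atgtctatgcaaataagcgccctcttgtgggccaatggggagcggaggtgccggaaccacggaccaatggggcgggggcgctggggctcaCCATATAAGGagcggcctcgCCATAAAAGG
No match shown overlapped a match of another pattern searched.

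Over windows from 250 bases before to 50 after the start, CARE was found in 3.67% of the 27305 RefSeq promoters and in 1.8% of the 8703 that matched a tested gene by symbol. It was found in 6 of the 16 matched promoters of cytosolic aminoacyl-tRNA synthetases, AARS1, CARS1 and TARS1 among them, and in 20 of 282 promoters (7.09%) of genes called at least 2-fold higher, against 6 of 166 (3.61%) of those called at least 2-fold lower. ERSE was found, on either strand, in 0.0806% of all promoters, in 0.172% of those of tested genes and in 6 of 18 of the ER chaperones, CANX included. The heat shock element was found in 0.487% of all promoters and in 0.31% of those of tested genes. Among heat shock proteins of the cytosol and mitochondria it was found in 4 of 19. The CArG box was found in 1.29% of all promoters and in 1.09% of those of tested genes. In the list of actin genes, actin-binding genes and SRF it was found in 4 of 34, TPM4 and SRF included. The sterol element SRE-1, searched as TCACNCCAC, was found in 1.15% and 1.16%, and in 0 of 6 promoters of the mevalonate enzymes and 0 of 9 of those from squalene to cholesterol. A match describes the letters only, and so does its absence from these windows.

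The 6 libraries were alike in kind but not in depth. Steps between low FPKM values gave an estimated 16.6 to 19.0 M fragments (M, mega) for the control libraries and 9.37 to 12.7 M for the morusinol libraries, an estimate under which 50.96% to 52.99% of the low values lay within 0.02 of a whole fragment, so depth moves with treatment and its part in the results was not tested. Pearson r of log2 values across genes was 0.976 to 0.977 within control, 0.963 to 0.966 within morusinol and 0.914 to 0.928 between the groups. The signal recognition particle RNA RN7SL1 took 19.9% to 23.1% of all FPKM, and the 13 protein genes of mitochondrial DNA were listed at 0. Of 6 markers of B lymphocytes all were present, with a summed level of 966 to 1020 FPKM in control and 613 to 660 after morusinol. Of 15 T and NK cell markers 3 were kept (TRAC, PRF1 and TRBC2, with CD3D at 0.0158 FPKM or less in every library), and of 12 myeloid and 12 stromal, endothelial and epithelial markers none, with LYZ, S100A8, S100A9 and ELANE at 0. The myeloid markers summed to 0.565 to 0.946 FPKM in control and 0.846 to 0.984 after morusinol, and the T and NK markers to 81.6 to 94.1 and 62 to 76.8.

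At an adjusted p under 0.05 (limma, Benjamini-Hochberg over the 15207 genes), 6662 genes were called, which is 43.8% of those tested, 3376 higher (22.2%) and 3286 lower (21.6%) after morusinol. The changes were mostly modest: the called genes had a median absolute log2 fold change of 0.52, a change of 2-fold or more was seen in 429 that rose (2.82%) and 421 that fell (2.77%), and of 4-fold or more in 55 and 26. The values of the groups did not overlap for 8404 genes (55.3%). Many genes named below were chosen with this as a condition or for a small p, so their lack of overlap is no added support. Rescaling each library by its protein-coding total moved the split of the 6564 called genes to 3808 higher and 2756 lower. Of protein-coding genes 55.4% were called, against 27.2% of long non-coding RNAs and 14.5% of small or structural RNAs. The called share varied with level, from 26.2% below a mean of 1 FPKM to 68.8% at 20 to 100 FPKM and 55.5% above. Shares of all genes tested are therefore low for lists of abundant genes. Fold changes are on the log2(FPKM + 1) scale with their standard error, which understates the change of genes near 1 FPKM. The labels name no counting rule or use of strand, so values are uncertain where genes share a locus, as FADS2 and FEN1, NME1 and NME1-NME2, HSPE1 and HSPE1-MOB4, and BUB1B and BUB1B-PAK6 do on the same strand.

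**Figure D1:**
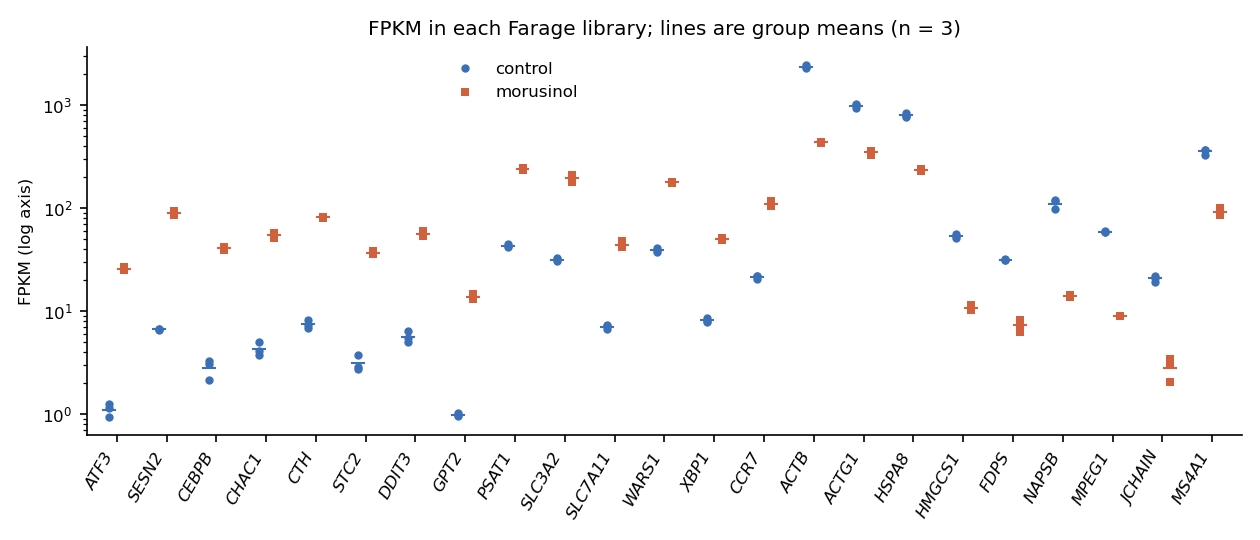
FPKM (log axis) of 23 genes in each Farage library, with control as circles, morusinol as squares and group means as lines. Stress and amino acid genes on the left rise, ACTB falls from 2303 or more to 440.3 or less, and MS4A1 falls from 332 or more to 101 or less.

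The rises were led by the stress factors downstream of eIF2. Of 12 listed transcription factors of this response 9 were tested, 8 rose and 1 fell (median log2 fold change 1.38, against -0.04 for all genes tested). ATF4 itself was at 120.0, 102 and 118 FPKM in control and 306, 306 and 279 after morusinol (log2 fold change 1.38 ± 0.0753). ATF3, a stress factor that ATF4 induces, was at 1.14, 0.932 and 1.25 FPKM in control and 25.8, 26.6 and 25.4 after morusinol (log2 fold change 3.68 ± 0.0704, adjusted p = 2.93e-06). In both genes every morusinol library lay above every control library. CEBPB, a bZIP partner of ATF4, was at 3.05, 3.28 and 2.13 FPKM in control and 41.1, 41.6 and 39.6 after morusinol (log2 fold change 3.46 ± 0.118). DDIT3 (CHOP), another partner, was at 4.98, 5.49 and 6.37 FPKM in control and 56.5, 60.1 and 53.4 after morusinol (log2 fold change 3.13 ± 0.0875), with part of its locus shared with other genes on both strands. TRIB3, a pseudokinase that restrains ATF4, rose from 8.27 ± 0.743 to 52 ± 3.35 FPKM and CEBPG rose from 16.1 ± 0.663 to 37.2 ± 0.981 FPKM, while BATF, an AP-1 family factor, fell by 0.38.

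Genes for eIF2 kinases, phosphatase regulators, eIF2 itself and its exchange factor eIF2B moved in both directions. Of 14 tested genes 4 rose and 8 fell (median -0.27). The rises were those of PPP1R15A (GADD34, which directs a phosphatase to eIF2), from 43.4 ± 4.19 to 163 ± 8.6 FPKM (log2 fold change 1.88 ± 0.0794), of its constitutive relative PPP1R15B (0.73), of the ER kinase EIF2AK3 (PERK), from 2.37 ± 0.0831 to 8.47 ± 0.175 FPKM (log2 fold change 1.49 ± 0.057), and of the heme-regulated kinase EIF2AK1 (0.23), whose call was lost without each of 4 of the 6 libraries in turn (limma, adjusted p 0.0589 to 0.0666). The call of EIF2AK1 was also lost with each library rescaled to the same total (limma, adjusted p 0.0682) and with no filter (0.0644). EIF2AK2 (PKR, the double-stranded RNA kinase) fell from 17.1 ± 0.86 to 8.22 ± 0.704 FPKM (log2 fold change -0.97 ± 0.0707). Among restraints of mTORC1, the kinase complex that promotes growth and translation, 8 of 14 rose and 1 fell. SESN2, which binds leucine and holds mTORC1 back, was at 6.61, 6.74 and 6.72 FPKM in control and 94.4, 90.8 and 86.2 after morusinol (log2 fold change 3.57 ± 0.0476). EIF4EBP1 (4E-BP1, an inhibitor of cap-dependent initiation) was at 17.4, 15.9 and 15.4 FPKM in control and 91.3, 88.1 and 80.6 after morusinol, whereas its relative EIF4EBP2 fell by 0.41. All 5 tested genes of 8 secreted stress factors rose. They include STC2 (stanniocalcin 2), at 3.74, 2.86 and 2.76 FPKM in control and 38.3, 36.6 and 35.7 after morusinol (log2 fold change 3.21 ± 0.0953), INHBE (a chain of activin E), from 0.508 ± 0.0744 to 9.25 ± 1.06 FPKM, ADM2 (adrenomedullin 2), from 0.167 ± 0.0611 to 3.22 ± 0.484 FPKM, and VEGFA (the angiogenic factor), from 0.377 ± 0.0521 to 2.99 ± 0.109 FPKM. Of the genes named, INHBE, ADM2, VEGFA, ASNS, ERN1 and BACH2 were kept through the morusinol libraries alone, and CCL4 and TNFRSF17 through the control libraries alone, so that these had to differ.

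Enzymes that make amino acids rose at specific steps. In the serine, glycine and one-carbon group 6 of 12 tested genes rose, all by at least 2-fold. Another 3 fell, 1 of them by at least 2-fold. PSAT1, PHGDH and PSPH carry out the 3 steps from a glycolytic intermediate to serine. PSAT1 was at 43.2, 42.1 and 44.9 FPKM in control and 241, 233 and 246 after morusinol (log2 fold change 2.44 ± 0.0452, adjusted p = 2.93e-06). PHGDH was at 10.6, 10.1 and 11.3 FPKM in control and 52.9, 50 and 46.4 after morusinol (log2 fold change 2.12 ± 0.0663). PSPH rose from 10.7 ± 0.255 to 34.2 ± 2.45 FPKM (log2 fold change 1.59 ± 0.0606). The mitochondrial one-carbon enzymes rose too: SHMT2 from 42.9 ± 3.62 to 169 ± 9.75 FPKM, MTHFD2 from 17.3 ± 0.927 to 45.9 ± 0.723 FPKM and MTHFD1L by 1.01 on the log2 scale. Their cytosolic counterparts fell: SHMT1 from 8.96 ± 0.599 to 6.46 ± 0.395 FPKM (log2 fold change -0.42 ± 0.0687) and MTHFD1 from 14.3 ± 0.485 to 8.75 ± 0.383 FPKM (log2 fold change -0.65 ± 0.0524).

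Other amino acid enzymes were split, with 5 of 13 higher and 6 lower (median 0.07). GPT2, the mitochondrial alanine aminotransferase, was at 1.02, 0.964 and 0.986 FPKM in control and 13.2, 14.8 and 13.5 after morusinol (log2 fold change 2.90 ± 0.0673). PYCR1, which makes proline, rose from 12.9 ± 0.653 to 30.8 ± 1.6 FPKM, and ALDH18A1, the enzyme before it in the same path, fell from 49.9 ± 2.76 to 35.8 ± 0.856 FPKM. The cytosolic aspartate aminotransferase GOT1 rose from 19.9 ± 0.859 to 46.9 ± 2.55 FPKM and the mitochondrial GOT2 fell by 0.67. ASNS (asparagine synthetase) was at 0.614, 0.885 and 0.807 FPKM in control and 3.3, 2.85 and 2.42 after morusinol (log2 fold change 1.12 ± 0.134), a value that is uncertain because another annotated gene shares its locus on the same strand. BCAT1, which transaminates branched-chain amino acids, rose from 64.8 ± 2.25 to 110.4 ± 9.56 FPKM.

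Of 12 tested genes for transsulfuration, cystine and glutathione 8 rose and 3 fell (median 0.64). CTH, which makes cysteine from cystathionine, was at 6.87, 7.35 and 8.21 FPKM in control and 80.3, 80.8 and 83 after morusinol (log2 fold change 3.28 ± 0.0647). CHAC1, which breaks down glutathione, was at 5.03, 4.08 and 3.78 FPKM in control and 57.6, 57.4 and 50.9 after morusinol (log2 fold change 3.42 ± 0.0993), while its relative CHAC2 fell from 11.4 ± 2.16 to 5.61 ± 0.907 FPKM. GCLM, the modifier subunit of the first enzyme of glutathione synthesis, rose from 6.47 ± 0.663 to 15.4 ± 0.0619 FPKM. PCK2, the mitochondrial PEP carboxykinase, rose from 7.05 ± 1.03 to 49.4 ± 5.74 FPKM (log2 fold change 2.65 ± 0.124).

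Import followed the same direction, with 11 of 18 tested amino acid transporters higher and 2 lower (median 0.68). SLC3A2, the heavy chain shared by several exchangers, was at 32.5, 30.5 and 32 FPKM in control and 208, 201 and 178 after morusinol (log2 fold change 2.58 ± 0.0682). SLC7A11, its cystine-importing partner, was at 6.65, 7.37 and 7.12 FPKM in control and 42.9, 41.8 and 47.6 after morusinol (log2 fold change 2.49 ± 0.0657), and SLC7A5, its partner for large neutral amino acids, was at 56.8, 50.2 and 51.6 FPKM in control and 152, 142 and 140.2 after morusinol (log2 fold change 1.44 ± 0.0616). All 3 genes were higher in each morusinol library than in any control library. SLC38A2, a sodium-coupled importer of small neutral amino acids, rose from 40.4 ± 0.537 to 129 ± 8.92 FPKM, SLC7A1, an importer of arginine and lysine, rose from 27.1 ± 1.08 to 72.2 ± 2.03 FPKM, and SLC43A1, a carrier of large neutral amino acids, rose from 5.6 ± 0.214 to 27.3 ± 2.17 FPKM. SLC7A6, another heteromeric partner, fell by 0.54, and the mitochondrial glutamate carrier SLC25A22 by 0.34.

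The cytosolic and mitochondrial lists of enzymes that charge tRNA differed on balance, with members of each going the other way. Of 21 cytosolic synthetases 13 rose, 8 of them by at least 2-fold, and 5 fell (median 0.68), whereas of 15 tested mitochondrial synthetases 2 rose and 9 fell (median -0.31). WARS1 (tryptophan) was at 41.3, 37.5 and 39.6 FPKM in control and 177, 179 and 179.9 after morusinol (log2 fold change 2.15 ± 0.0476). GARS1 (glycine) was at 13.3, 12.8 and 12.9 FPKM in control and 44.1, 46.6 and 46.4 after morusinol (log2 fold change 1.74 ± 0.0438). SARS1 (serine), AARS1 (alanine), CARS1 (cysteine) and TARS1 (threonine) rose by 1.64, 1.59, 1.53 and 1.04 on the log2 scale. The 5 that fell charge arginine (RARS1, from 33.8 ± 0.679 to 19.6 ± 1.04 FPKM), phenylalanine (FARSB, from 15.5 ± 0.206 to 9.03 ± 0.168 FPKM, and FARSA, from 42.5 ± 2.24 to 33.7 ± 1 FPKM), lysine (KARS1, from 75.5 ± 5.17 to 50.9 ± 2.55 FPKM) and histidine (HARS1, from 6.13 ± 0.177 to 4.55 ± 0.0669 FPKM). Among mitochondrial enzymes CARS2 fell from 6.62 ± 0.174 to 3.55 ± 0.113 FPKM (log2 fold change -0.74 ± 0.0566) and MARS2 from 13.3 ± 0.604 to 8.02 ± 0.449 FPKM (log2 fold change -0.66 ± 0.0598), and HARS2 and WARS2 rose by 0.27 and 0.24. The call of HARS2 was lost without each of 4 of the 6 libraries in turn (limma, adjusted p 0.0533 to 0.0798), and that of WARS2 without morusinol replicate 2 (0.0582). Of the genes for cytosolic synthetases, the response was higher than in SU-DHL-8 for 11 and lower for 2 (background 19.1% and 17.1% of tested genes).

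**Figure D2:**
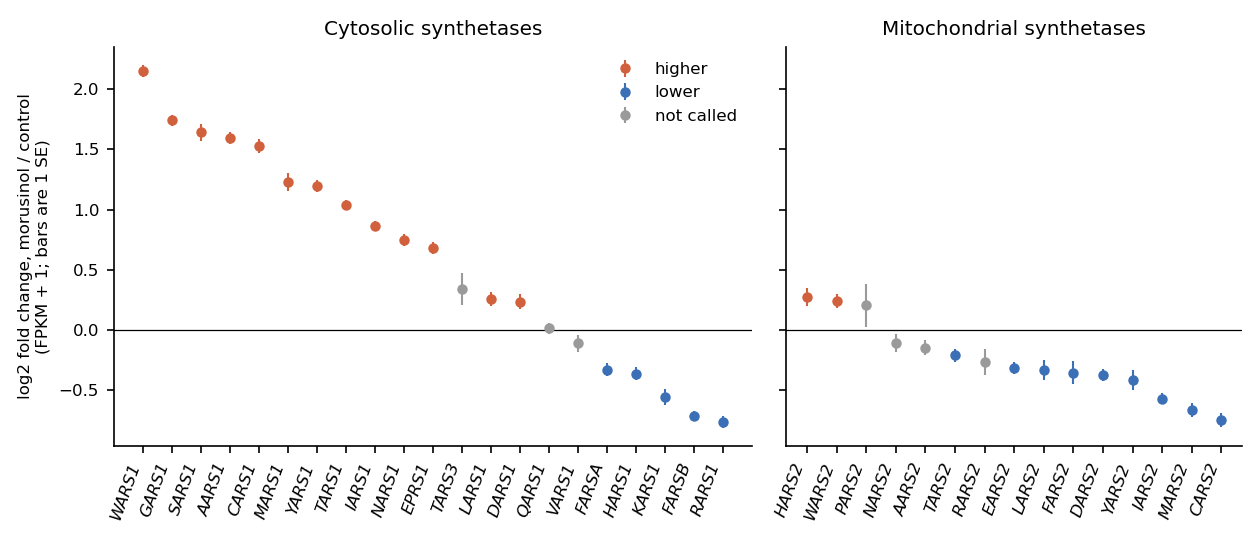
Log2 fold change (morusinol over control, FPKM + 1, points with bars of 1 SE, n = 3 libraries per group) of the 21 cytosolic and 15 mitochondrial aminoacyl-tRNA synthetases tested in Farage. The cytosolic enzymes run from 2.15 for WARS1 to -0.76 for RARS1, and the mitochondrial ones lie between 0.27 for HARS2 and -0.74 for CARS2.

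The ER folding machinery rose as a group. Of 19 tested chaperones and folding enzymes 17 rose and none fell (median 0.87), as did 8 of 9 sensors and factors of the unfolded protein response (median 0.89). HSPA5 (BiP, which holds unfolded ER proteins) was at 118, 108 and 111 FPKM in control and 282, 287 and 279.5 after morusinol (log2 fold change 1.33 ± 0.048). HYOU1, its nucleotide exchange factor, was at 45.1, 40.4 and 40.8 FPKM in control and 135, 130.3 and 120.2 after morusinol (log2 fold change 1.58 ± 0.0649), and DNAJB9, a cochaperone, at 5.08, 7.27 and 6.84 FPKM in control and 32.4, 33.3 and 35.6 after morusinol (log2 fold change 2.24 ± 0.119). HSP90B1 (GRP94), CANX and MANF rose by 1.09, 0.90 and 0.99. XBP1, the factor whose mRNA the sensor IRE1 splices, was at 8.63, 7.99 and 7.81 FPKM in control and 50.8, 51.4 and 48.7 after morusinol (log2 fold change 2.49 ± 0.052), and ERN1, which codes for IRE1, rose from 0.587 ± 0.0222 to 2.31 ± 0.149 FPKM. CREB3L2, a membrane-bound bZIP factor, rose from 2.89 ± 0.0281 to 8.88 ± 0.836 FPKM. Of 14 genes of ER-associated degradation 9 rose and 2 fell, with SEL1L (an adaptor of the HRD1 ligase) at 23.4 ± 0.21 FPKM in control and 72.5 ± 3.59 FPKM after morusinol and HERPUD1 at 95 ± 1.8 FPKM in control and 268 ± 3.9 FPKM after morusinol. For the chaperones, the response in Farage was lower than in SU-DHL-8 for 13 of 19 genes and higher for 1.

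Genes of sterol synthesis fell, with all 8 enzymes from acetyl-CoA to farnesyl diphosphate lower (median -1.19) and 11 of 12 from squalene to cholesterol (median -0.80). FDPS, which makes farnesyl diphosphate, was at 32.2, 31.2 and 31.3 FPKM in control and 8.25, 7.44 and 6.34 after morusinol (log2 fold change -1.97 ± 0.0865). MSMO1, a sterol demethylating oxidase, was at 53.9, 64.4 and 62.3 FPKM in control and 16.6, 19.3 and 17.9 after morusinol (log2 fold change -1.69 ± 0.0852). LSS, which closes the sterol ring, was the exception at 16.6, 15.3 and 15.2 FPKM in control and 27.3, 26.6 and 23.5 after morusinol (log2 fold change 0.68 ± 0.0697). Of 12 tested genes of SREBP processing and sterol uptake 7 rose and 2 fell (median 0.27). INSIG1, which retains SREBP in the ER, was 1 of the falls, from 73.2 ± 2.67 to 34.7 ± 0.826 FPKM. Of the factors themselves, SREBF1 rose from 10.2 ± 0.86 to 15.1 ± 0.846 FPKM (log2 fold change 0.52 ± 0.0728) and SREBF2 was not called (from 62.1 ± 3.14 to 66 ± 3.41 FPKM, log2 fold change 0.09 ± 0.0586). The fatty acid desaturase FADS2 fell from 19.5 ± 0.631 to 5.51 ± 0.408 FPKM (log2 fold change -1.66 ± 0.0615), and ACSL1, which activates fatty acids, rose by 0.43, the single rise among 13 tested genes of fatty acid synthesis, elongation and desaturation, 7 of which fell.

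Chaperones of the cytosol and mitochondria went, on balance, the other way from those of the ER. Of 21 tested heat shock proteins and cochaperones 15 fell and 4 rose (median -0.43), and of 14 chaperonin and prefoldin subunits 10 fell and none rose (median -0.56). HSPA8 (HSC70), among the most abundant of them, was at 787, 777 and 841 FPKM in control and 239, 238 and 232 after morusinol (log2 fold change -1.76 ± 0.0487). HSP90AA1 was at 445, 453 and 454 FPKM in control and 197, 202 and 204 after morusinol (log2 fold change -1.16 ± 0.0404). HSPE1, the lid of the mitochondrial chaperonin, was at 51.2, 57 and 58.9 FPKM in control and 13.7, 14.9 and 14.9 after morusinol (log2 fold change -1.87 ± 0.0676), and AHSA1, an activator of HSP90, fell from 64.2 ± 2.95 to 28 ± 1.26 FPKM. The stress-inducible HSPA1A and HSPA1B, near-identical neighbours whose reads may be split between them, rose from 4.23 ± 0.0665 to 6.66 ± 1.11 FPKM and from 5.84 ± 1.05 to 9.46 ± 0.847 FPKM. The factor HSF1 rose by 0.22 and the mitochondrial HSPA9 by 0.29, and the call of HSF1 was lost without each of 3 of the 6 libraries in turn (limma, adjusted p 0.0724 to 0.0834). The chaperonin subunits CCT2 and CCT6A fell by 0.90 and 0.94.

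Genes of the actin cytoskeleton fell. Of 37 tested genes, SRF among them, 30 fell, 12 of them by at least 2-fold, and none rose (median -0.71). ACTB (beta-actin, chr7:5527147-5563784, GRCh38) was at 2478, 2303 and 2347 FPKM in control and 436, 440.3 and 428 after morusinol (log2 fold change -2.45 ± 0.049, adjusted p = 2.93e-06). ACTG1 was at 1036, 946 and 997 FPKM in control and 363, 360.0 and 331 after morusinol (log2 fold change -1.50 ± 0.0602). Both actins were lower in every morusinol library than in any control library. CFL1 (cofilin, which severs filaments) was at 132, 113 and 121 FPKM in control and 44, 44 and 41.3 after morusinol (log2 fold change -1.48 ± 0.0646). TPM4 (tropomyosin 4), ACTR3 (a subunit of the ARP2/3 nucleator) and ARPC5 (another) fell by 1.27, 1.02 and 1.05. The monomer-binding thymosins TMSB4X and TMSB10 fell from 1069 ± 80.9 to 517 ± 22.6 FPKM and from 832 ± 52.5 to 442 ± 21.2 FPKM. SRF, the factor that binds CArG boxes in actin genes, was at 29.1, 27.3 and 27.7 FPKM in control and 13.6, 11.6 and 11.9 after morusinol (log2 fold change -1.12 ± 0.0687). Of 12 tested genes for tubulins and their partners, TBCB and STMN1 among them, 8 fell and 1 rose. TUBB fell from 302 ± 19.3 to 191 ± 9.86 FPKM, and TUBA1A rose from 28.3 ± 2 to 38.2 ± 1.92 FPKM.

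Genes for mitochondrial energy production fell together. Of 76 tested nuclear-encoded subunits of the respiratory chain 69 fell, 9 by at least 2-fold, and none rose (median -0.62; 64 fell and 1 rose after rescaling by the protein-coding total). NDUFS5 (complex I) was at 103, 109 and 98 FPKM in control and 36, 34.4 and 39 after morusinol (log2 fold change -1.48 ± 0.0641). ATP5MC3 (the ring of ATP synthase) was at 69.5, 70.7 and 73.8 FPKM in control and 30.5, 30.7 and 28.3 after morusinol (log2 fold change -1.23 ± 0.0497), and NDUFA4 (complex IV) at 44.6, 42.9 and 47.7 FPKM in control and 18.7, 21.2 and 20 after morusinol (log2 fold change -1.14 ± 0.0637). Every one of these values was below the control range. Of 75 mitochondrial ribosomal proteins 55 fell and 4 rose (median -0.41), with MRPL17 at 18.6 ± 0.919 FPKM in control and 8.88 ± 0.904 FPKM after morusinol and, in the other direction, MRPL10 at 16.1 ± 1.42 FPKM in control and 23.4 ± 1.69 FPKM after morusinol and MRPS10 at 36.2 ± 1.3 FPKM in control and 49.4 ± 4.32 FPKM after morusinol. CYCS (cytochrome c) fell from 43.2 ± 3.63 to 21.4 ± 1.55 FPKM.

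Glycolytic enzymes fell as well: of 25 tested genes of glycolysis, lactate and the pentose phosphate path 18 fell and 6 rose (median -0.41). LDHA (lactate dehydrogenase A) was at 173, 166 and 181 FPKM in control and 59.6, 60 and 58.4 after morusinol (log2 fold change -1.53 ± 0.0464). PKM, PGAM1 and PGK1, enzymes of the lower part of the path, fell from 254 ± 14.3 to 115 ± 5.57 FPKM, from 149 ± 10.2 to 68.6 ± 2.35 FPKM and from 105 ± 8.37 to 49.6 ± 1.96 FPKM. The glucose transporter SLC2A3 was at 6.3, 6.48 and 6.35 FPKM in control and 17.2, 17.6 and 16.2 after morusinol (log2 fold change 1.29 ± 0.0491), and SLC2A1, the lactate carrier SLC16A1 and the phosphofructokinase PFKL rose by 0.44, 0.49 and 0.67. In the TCA cycle and fatty acid oxidation 15 of 26 fell and 3 rose. Of 21 genes of purine and pyrimidine synthesis 18 fell and none rose, NME1 (a nucleoside diphosphate kinase) from 23.1 ± 0.8 to 7.39 ± 0.487 FPKM (log2 fold change -1.53 ± 0.0591) and PAICS (a purine enzyme) from 62.5 ± 1.11 to 33 ± 1.37 FPKM (log2 fold change -0.90 ± 0.0455).

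The genes that build ribosomes and process RNA were lower too. Of 26 nucleolar genes 23 fell and 1 rose (median -0.55), with NOP16 at 15.1 ± 0.706 FPKM in control and 6.31 ± 0.461 FPKM after morusinol and NCL (nucleolin) at 106 ± 7.16 FPKM in control and 63.4 ± 3.48 FPKM after morusinol. Cytosolic ribosomal proteins changed little, with 32 of 82 lower and 1 higher (median -0.12), and 40.2% called against 43.8% of all genes tested. After rescaling by the protein-coding total 26 were lower and 6 higher. RPS26 was at 83.5, 80.7 and 83.6 FPKM in control and 39.1, 31 and 31.7 after morusinol (log2 fold change -1.26 ± 0.09), with a gene on the opposite strand in part of its locus. Translation factors were mixed, 5 of 38 higher and 14 lower. EIF1, which governs start codon choice, was at 138, 126 and 133 FPKM in control and 376, 373 and 349 after morusinol (log2 fold change 1.46 ± 0.0563), and EEF2, the translocase, at 929, 838 and 905 FPKM in control and 1525, 1501 and 1393 after morusinol (log2 fold change 0.73 ± 0.0628), while EIF5A fell from 197 ± 9.93 to 103 ± 6.82 FPKM. Of 31 splicing genes (SR proteins, hnRNPs and their CLK kinases) 23 fell and 5 rose: SRSF7 fell from 79.4 ± 3.89 to 32.2 ± 0.271 FPKM, HNRNPA2B1 fell from 84.6 ± 2.04 to 42.8 ± 1.29 FPKM, and CLK1, which phosphorylates SR proteins, rose from 21.6 ± 1.51 to 40 ± 1.65 FPKM. Of 36 proteasome subunits 26 fell and none rose (median -0.35). The steepest was PSMB8, a subunit of the immunoproteasome, at 19.9, 19.9 and 21.5 FPKM in control and 5.53, 7.59 and 6.37 after morusinol (log2 fold change -1.52 ± 0.103).

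**Figure D3:**
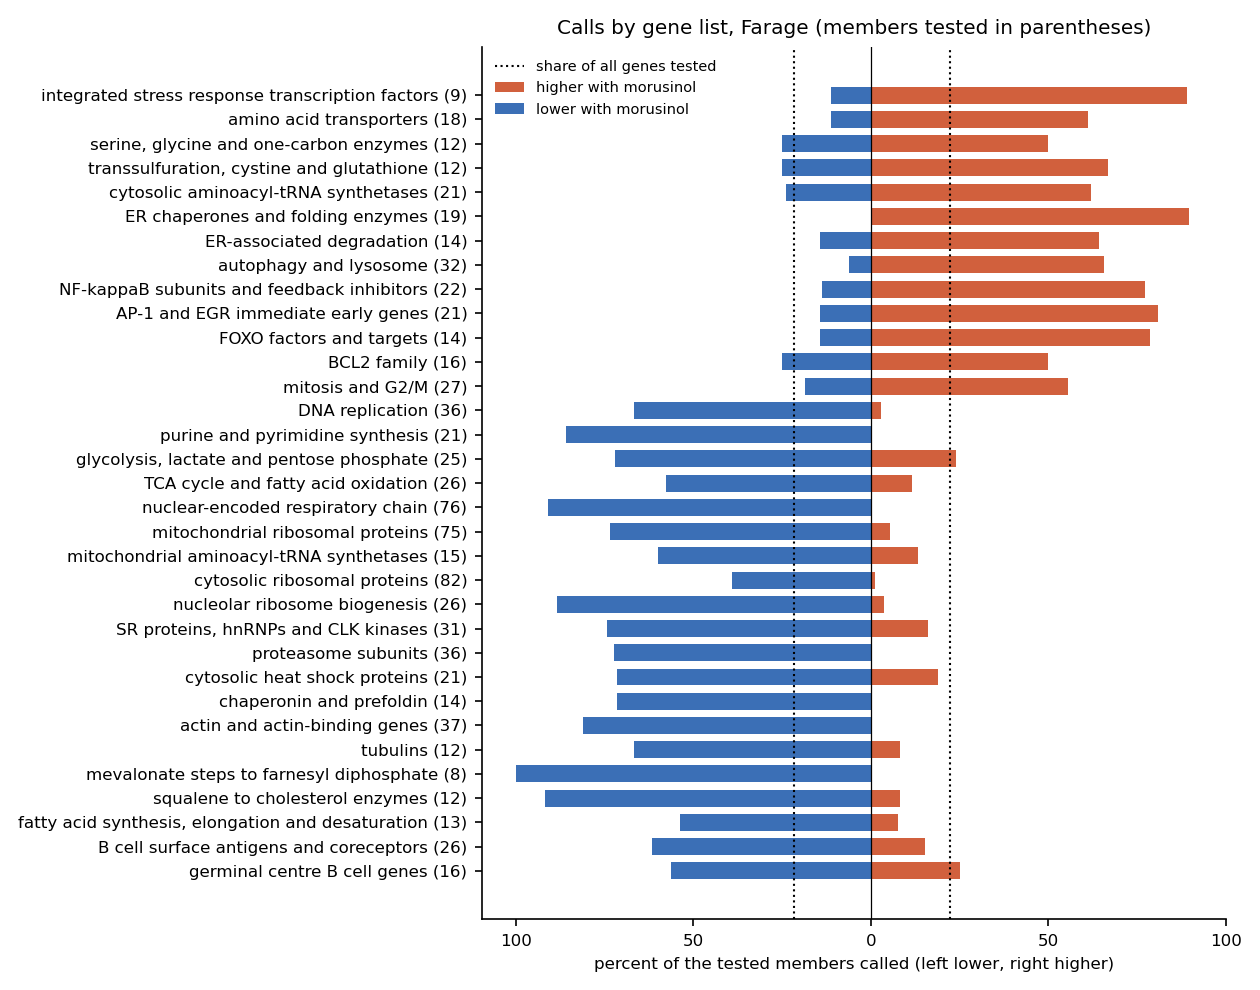
Percent of the tested members of 33 gene lists called higher (right) or lower (left) after morusinol in Farage, with the number tested in parentheses and dotted lines at the shares of all genes tested, 22.2% higher and 21.6% lower. Lists of amino acid supply and ER folding extend to the right, and those of sterols, actin and the respiratory chain to the left. The dotted lines are not matched to the expression level of each list.

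Genes of DNA replication fell for the most part, and those of mitosis and G1 moved in both directions. Of 36 DNA replication genes 24 fell and 1 rose (median -0.39), with MCM4 (a subunit of the replicative helicase) at 66.5, 59.8 and 65.2 FPKM in control and 26.5, 26.5 and 24.6 after morusinol (log2 fold change -1.27 ± 0.0581), FEN1 (a flap endonuclease) at 71.3 ± 4.46 FPKM in control and 33.4 ± 3.05 FPKM after morusinol and PCNA (the sliding clamp) at 237 ± 13.1 FPKM in control and 129 ± 0.851 FPKM after morusinol. PRIM1, a primase subunit, rose from 3.84 ± 0.463 to 5.47 ± 0.335 FPKM. Of 27 genes of mitosis 15 rose and 5 fell, by small amounts (median 0.19). TPX2, which activates Aurora A on the spindle, was at 65.3, 62.9 and 58.7 FPKM in control and 84.7, 91.2 and 88.7 after morusinol (log2 fold change 0.50 ± 0.0554), and the checkpoint kinases BUB1B and BUB1 rose from 26.5 ± 0.804 to 35.9 ± 1.64 FPKM and from 22.2 ± 1.09 to 29.1 ± 1.94 FPKM. The mitotic cyclins did not share this direction: CCNA2 fell from 53.1 ± 2.38 to 38.8 ± 1.97 FPKM and CCNB1 from 84.3 ± 3.89 to 70.2 ± 0.875 FPKM. Of 20 regulators of G1, 7 rose and 7 fell. CDKN1B (p27, an inhibitor of cyclin E and CDK2) was at 3.77, 4.14 and 3.93 FPKM in control and 11.2, 11.6 and 11.6 after morusinol (log2 fold change 1.33 ± 0.0536). CCNE1, CCNE2 and the phosphatase CDC25A fell from 15 ± 0.329 to 7.27 ± 0.678 FPKM, from 4.42 ± 0.314 to 1.72 ± 0.121 FPKM and from 20.6 ± 0.774 to 10.1 ± 0.76 FPKM, and CDK2 itself rose from 21.1 ± 0.316 to 38.2 ± 1.86 FPKM. MYC was not called (from 30.8 ± 3.04 to 28.1 ± 0.65 FPKM, log2 fold change -0.12 ± 0.0734), and of its dimer network MXI1, a repressor that competes for its partner MAX, rose from 1.75 ± 0.108 to 6.12 ± 0.396 FPKM.

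These groups differed from SU-DHL-8 when the difference itself was tested (limma over 12 libraries, the same 15207 genes). The difference was called for 5497 genes (36.1%), 2904 with a higher response in Farage (19.1%) and 2593 with a lower one (17.1%). These genes were kept by the Farage libraries alone, and 11969 of the 15207 also met the same rule in SU-DHL-8. With each library rescaled to the same total (TPM), 3240 of 4920 called differences were higher in Farage, so the split depends on the scaling. The response was higher in Farage for 25 of 27 mitotic genes (26 after rescaling) and for 25 of 36 replication genes (28), and lower for none in either group. It was lower in Farage for 71 of 82 cytosolic ribosomal proteins (42 after rescaling) and higher for 2 (2). The median log2 fold change of mitotic genes was 0.19 in Farage and -0.63 in SU-DHL-8, that of replication genes -0.39 and -0.91, and that of ribosomal proteins -0.12 and 0.27. CDK2 changed by 0.83 in Farage and -1.39 in SU-DHL-8 (difference 2.22 ± 0.0718, adjusted p = 4.2e-08).

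**Figure D4:**
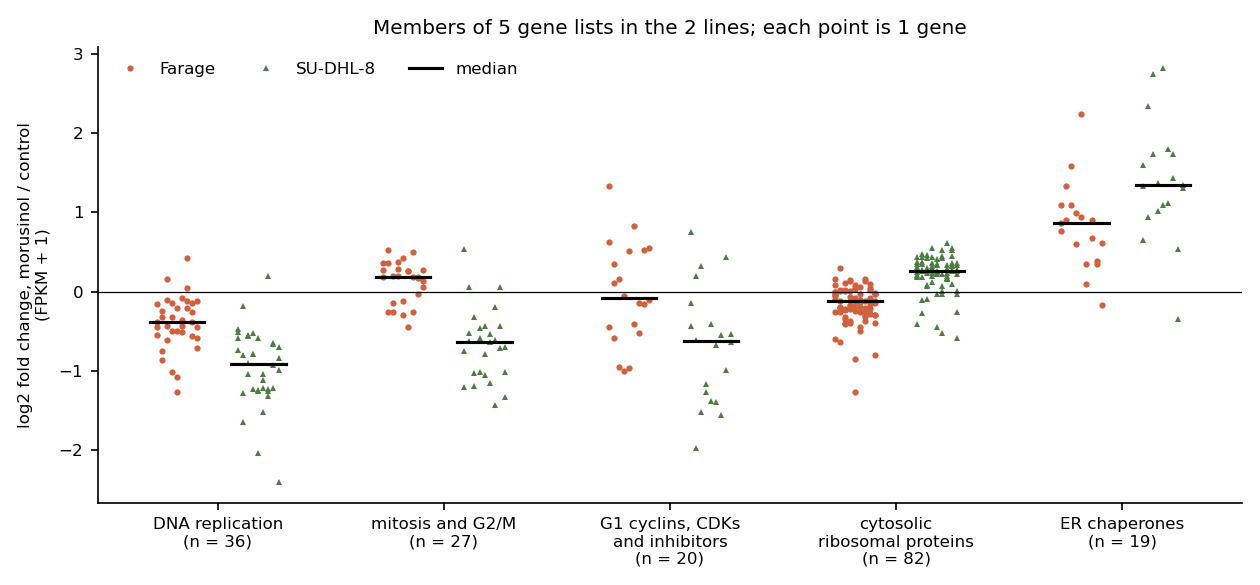
Log2 fold change (morusinol over control, FPKM + 1) of each tested member of 5 gene lists in Farage (circles) and SU-DHL-8 (triangles), with medians as bars. Mitotic genes have a median of 0.19 in Farage and -0.63 in SU-DHL-8, and ER chaperones 0.87 and 1.34.

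Regulators of apoptosis moved in both directions. In the BCL2 family 8 of 16 tested genes rose and 4 fell. BBC3 (PUMA, which promotes cell death) was at 1.41, 1.34 and 1.21 FPKM in control and 13.5, 12.8 and 10.8 after morusinol (log2 fold change 2.52 ± 0.0925). BMF and BCL2L11 (BIM), which also promote it, rose from 6.23 ± 0.27 to 16.5 ± 0.861 FPKM and from 4.85 ± 0.437 to 11.8 ± 0.607 FPKM. BCL2, which protects cells, was at 15.2, 16.2 and 15.3 FPKM in control and 43.4, 42.1 and 47 after morusinol (log2 fold change 1.45 ± 0.0555). In the other direction, BIK, which promotes death, was at 133, 124 and 139 FPKM in control and 54.5, 46.7 and 46.9 after morusinol (log2 fold change -1.40 ± 0.0773) and BCL2A1, which protects, at 241, 266 and 262 FPKM in control and 128, 135 and 126 after morusinol (log2 fold change -0.98 ± 0.0554). Members that promote and members that oppose death are thus found among both the rises and the falls. TNFRSF10B (DR5, a receptor for TRAIL) rose from 16.6 ± 1.07 to 36.5 ± 0.625 FPKM and FAS by 0.69. GADD45A, a growth arrest and stress gene, was at 4.44, 3.54 and 3.74 FPKM in control and 20.2, 18 and 21 after morusinol (log2 fold change 2.08 ± 0.0907). Among FOXO factors and targets 11 of 14 rose and 2 fell: TSC22D3 (GILZ) was at 2.43, 2.72 and 2.62 FPKM in control and 24.4, 24.8 and 22.1 after morusinol (log2 fold change 2.79 ± 0.0648), and PIK3IP1 (an inhibitor of PI3 kinase), CCNG2 (cyclin G2) and TXNIP (which inhibits thioredoxin) rose by 1.53, 1.25 and 1.29.

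Several groups of signalling genes were higher. Of 22 NF-kappaB subunits and feedback inhibitors 17 rose and 3 fell (median 0.41), with NFKB2 (p100) at 63.5, 55.5 and 59.8 FPKM in control and 165, 155 and 143 after morusinol (log2 fold change 1.36 ± 0.0732), RELB at 44.2 ± 2.68 FPKM in control and 87.6 ± 8.49 FPKM after morusinol and TNFAIP3 (A20, a feedback inhibitor) at 56.1 ± 2.66 FPKM in control and 111 ± 2.99 FPKM after morusinol. Of 21 immediate early genes 17 rose and 3 fell (median 0.70). NR4A1, a nuclear receptor induced by antigen receptor signals, was at 5.43, 4.53 and 4.83 FPKM in control and 21.2, 20.5 and 18.7 after morusinol (log2 fold change 1.83 ± 0.0766), and JUN and FOSB rose from 7.7 ± 0.879 to 23.4 ± 1.73 FPKM and from 2.06 ± 0.131 to 6.83 ± 0.443 FPKM. EGR1 and EGR3, zinc finger factors of the same class, fell from 9.46 ± 0.899 to 6.67 ± 0.838 FPKM and from 2.43 ± 0.269 to 1 ± 0.158 FPKM. Of 12 tested phosphatases of the DUSP family and Sprouty genes, which damp MAP kinase signals, 8 rose and 1 fell, with DUSP5 at 7.3, 6.6 and 8.29 FPKM in control and 33.7, 34.3 and 30.7 after morusinol (log2 fold change 2.02 ± 0.0855).

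B cell genes were lower on balance, and not uniformly. Of 26 tested surface antigens and coreceptors 16 fell and 4 rose (median -0.47). Of the 26, 2 were kept through 1 group alone and had to differ. MS4A1 (CD20) was at 332, 366 and 371 FPKM in control and 86.6, 90.7 and 101 after morusinol (log2 fold change -1.93 ± 0.076, adjusted p = 1.36e-05). CD79A, which signals for the antigen receptor, was at 405, 363 and 407 FPKM in control and 396, 384 and 349.9 after morusinol and was not called (log2 fold change -0.06 ± 0.0709), and its groups overlapped. CD22, an inhibitory coreceptor, fell from 100.1 ± 5.06 to 81.2 ± 3.2 FPKM. CD52, a surface glycoprotein of lymphocytes, was at 70.7, 70.4 and 84.6 FPKM in control and 23.1, 22.5 and 21.8 after morusinol (log2 fold change -1.69 ± 0.0788), and FCER2 (CD23) fell from 26.3 ± 1.22 to 11.2 ± 0.594 FPKM. CD80 and CD83, surface proteins of activated B cells, rose from 30.2 ± 0.227 to 53.5 ± 2.74 FPKM and from 65.5 ± 2.12 to 98.8 ± 1.78 FPKM. In these bulk samples fewer cells of a kind and less RNA per cell cannot be told apart. Among the kinases and adaptors below the receptor, BTK, SYK and BLNK fell from 16.1 ± 0.754 to 7.79 ± 0.381 FPKM, from 27.4 ± 2.06 to 15.2 ± 0.256 FPKM and from 13.9 ± 0.0815 to 7.13 ± 0.168 FPKM, and DAPP1, an adaptor, rose from 27.3 ± 1.4 to 59.3 ± 0.919 FPKM; 8 of 25 genes rose and 10 fell.

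**Figure D5:**
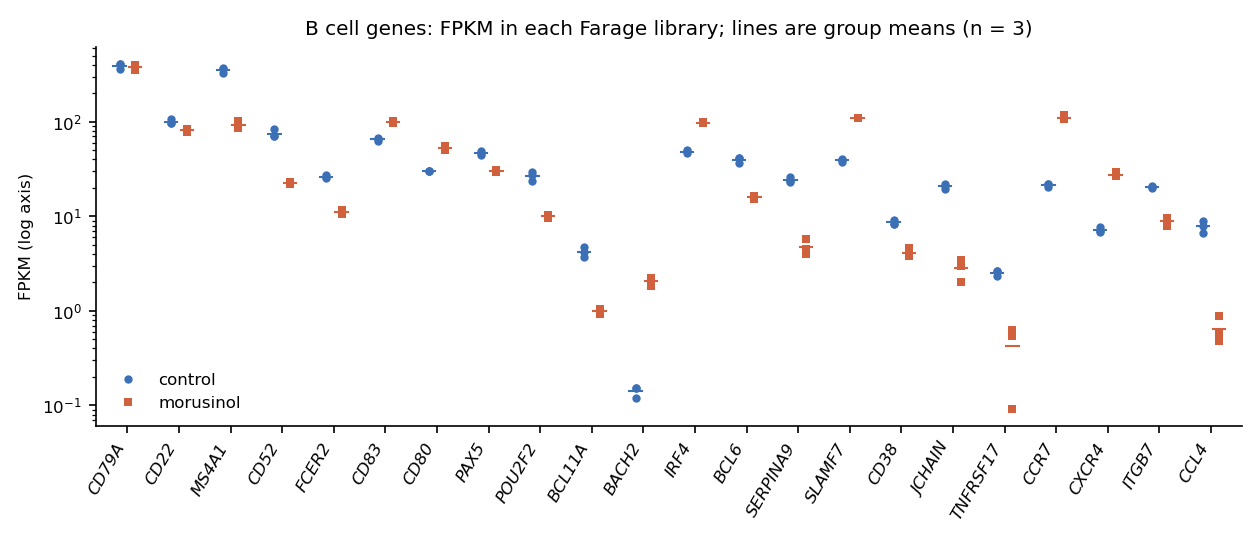
FPKM (log axis) of 22 B cell genes in each Farage library, with control as circles, morusinol as squares and group means as lines. The groups overlap for CD79A alone, MS4A1 is at 86.6 to 101 FPKM after morusinol, and BACH2 rises from under 0.2 FPKM. Of all genes tested, 55.3% had no overlap, and many genes shown were chosen for large changes or small p.

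Transcription factors of B cell identity were split, with 7 of 21 higher and 10 lower. BCL11A and POU2F2 (OCT2) fell from 4.19 ± 0.493 to 0.989 ± 0.0625 FPKM (log2 fold change -1.38 ± 0.105) and from 26.8 ± 2.83 to 9.99 ± 0.421 FPKM (log2 fold change -1.33 ± 0.0822). PAX5, which maintains B cell identity, fell from 46.9 ± 2.35 to 29.9 ± 0.811 FPKM. BCL6, the repressor that marks the germinal centre stage, was at 41.2, 41.3 and 36.8 FPKM in control and 16, 16.5 and 15.3 after morusinol (log2 fold change -1.27 ± 0.0603). Among the rises, BACH2, a repressor of plasma cell fate, was at 0.121, 0.153 and 0.153 FPKM in control and 2.12, 1.83 and 2.23 after morusinol (log2 fold change 1.42 ± 0.137), IRF4 was at 49.8, 48.7 and 47 FPKM in control and 97.7, 98.1 and 98.7 after morusinol and the ETS factor ELF1 rose from 52.9 ± 1.21 to 117 ± 4.83 FPKM. Of 16 germinal centre genes 9 fell and 4 rose. Of the 16, 3 were kept through 1 group alone, BACH2 among them, and had to differ. SERPINA9 fell from 24.2 ± 1.6 to 4.76 ± 0.861 FPKM (log2 fold change -2.14 ± 0.113). Plasma cell genes had no common direction, with 6 of 12 higher and 5 lower: JCHAIN (which joins IgM and IgA subunits) was at 19.3, 20.8 and 22.1 FPKM in control and 2.04, 2.97 and 3.44 after morusinol, TNFRSF17 (BCMA) at 2.53 ± 0.16 FPKM in control and 0.423 ± 0.29 FPKM after morusinol and CD38 at 8.62 ± 0.4 FPKM in control and 4.08 ± 0.457 FPKM after morusinol, all lower, while XBP1 and SLAMF7 (from 39.5 ± 1.39 to 109.7 ± 1.26 FPKM) rose and PRDM1 (BLIMP1) fell by 0.43. IGKC, the kappa light chain constant region, rose from 315 ± 16.8 to 621 ± 17.7 FPKM.

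Chemokines, homing receptors and antigen presentation genes had no common direction. CCR7, the receptor that guides lymphocytes to T cell zones, was at 22.1, 20.5 and 22.2 FPKM in control and 118, 109 and 106 after morusinol (log2 fold change 2.31 ± 0.0594). CXCR4, the receptor for CXCL12, was at 6.94, 6.89 and 7.66 FPKM in control and 27.1, 29.2 and 26.7 after morusinol (log2 fold change 1.81 ± 0.0605). The integrin chains ITGAL and ITGB7 fell from 8.85 ± 0.371 to 3.38 ± 0.365 FPKM and from 20.4 ± 0.663 to 8.83 ± 0.805 FPKM. CCL4, a chemokine, was at 7.96, 6.67 and 9.02 FPKM in control and 0.484, 0.565 and 0.884 after morusinol (log2 fold change -2.43 ± 0.14), and CXCL8 (interleukin 8), another, at 3.79, 4.19 and 3.98 FPKM in control and 29.8, 30.4 and 30.6 after morusinol (log2 fold change 2.65 ± 0.049). Of 17 tested chemokines and homing receptors 5 rose and 9 fell. Of the 17, 2 were kept through 1 group alone, CCL4 among them, and had to differ. IL2RA (CD25) was at 1.22, 1.24 and 1.3 FPKM in control and 12.8, 14.5 and 15.3 after morusinol (log2 fold change 2.75 ± 0.0783). Of 17 genes of MHC class I and peptide loading 6 rose and 6 fell (median -0.06), HLA-E among the rises, from 81.2 ± 5.07 to 149.6 ± 9.14 FPKM. Of 9 tested class II genes 1 rose and 4 fell (median -0.24), with 55.6% called against 43.8% of all genes tested. CD74 (the invariant chain) was among the falls, from 122 ± 10.9 to 92.5 ± 3.25 FPKM. Of 20 tested interferon-stimulated genes 8 fell and 1 rose, a share of calls near the 43.8% of all genes tested, with BST2 at 53.5 ± 4.58 FPKM in control and 26.8 ± 2.61 FPKM after morusinol.

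Redox, metal and lysosomal genes also moved. Of 24 tested NRF2 targets and thioredoxin genes 10 rose and 9 fell: HMOX1 (heme oxygenase 1) was at 18.2, 16.2 and 16.5 FPKM in control and 48.4, 44.4 and 41.8 after morusinol (log2 fold change 1.35 ± 0.0718), NFE2L2 (NRF2) rose from 21.5 ± 0.533 to 38.4 ± 0.561 FPKM, and the peroxiredoxins PRDX1 and PRDX3 fell from 295 ± 28 to 119 ± 4.45 FPKM and from 54.7 ± 6.46 to 27.8 ± 1.45 FPKM. SLC30A1, the zinc exporter of the plasma membrane, was at 2.65, 3.18 and 3.58 FPKM in control and 20.2, 20.7 and 22 after morusinol (log2 fold change 2.42 ± 0.0904), and the metallothionein MT2A was at 3.26, 5.89 and 4.92 FPKM in control and 14.4, 16.4 and 12.7 after morusinol (log2 fold change 1.47 ± 0.189); 6 of 9 tested genes of this group rose and 1 fell. Of 32 autophagy and lysosome genes 21 rose and 2 fell, GABARAPL1 from 1.52 ± 0.214 to 6.18 ± 0.477 FPKM, WIPI1 from 4.35 ± 0.075 to 12.5 ± 0.409 FPKM and, in the other direction, CTSZ (cathepsin Z) from 5.2 ± 0.0594 to 2 ± 0.11 FPKM.

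Among non-coding genes, WNT5A-AS1 (antisense to WNT5A, so that without strand its reads cannot be told from those of WNT5A) was at 3.38, 1.78 and 3.38 FPKM in control and 22.8, 22.8 and 20.1 after morusinol (log2 fold change 2.60 ± 0.188) and LINC01480 at 30.8, 31.7 and 32.7 FPKM in control and 68.1, 67.1 and 68.4 after morusinol (log2 fold change 1.07 ± 0.0404). CERNA2 and LINC02245 fell from 9 ± 0.386 to 3.16 ± 0.452 FPKM and from 6.92 ± 0.61 to 2.44 ± 0.278 FPKM. Of small or structural RNAs 137 fell and 35 rose of 1188 tested, and their median SE was 0.42 against 0.0769 for protein-coding genes. TRAJ4, a T cell receptor joining segment, was at 11.7, 15.4 and 15.8 FPKM in control and 5.02, 0 and 0 after morusinol (log2 fold change -3.06 ± 0.709), and SNORD82, a small nucleolar RNA inside NCL, at 6.03, 7.3 and 5.6 FPKM in control and 1.13, 0.763 and 0 after morusinol. TRAJ4 was at 0 in 2 morusinol libraries. Of 54 tested replication-dependent histone genes, whose mRNA lacks a poly(A) tail, 21 fell and 6 rose: H4C4 fell from 1811 ± 229.7 to 785 ± 48.9 FPKM, H1-5 fell from 2257 ± 149 to 1327 ± 100.2 FPKM and H2BC12 rose from 1426 ± 32.9 to 1692 ± 60.3 FPKM.

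Single genes set the lines apart further. A small change in SU-DHL-8 can also be that of a gene near the floor there, and SU-DHL-8 levels are not given here. STC2 rose by 3.21 in Farage and changed by 0.08 in SU-DHL-8 (difference 3.13 ± 0.122, adjusted p = 1.3e-07). SPIB, an ETS factor of B cells, went from 18.8 ± 1.57 to 22.4 ± 1.76 FPKM in Farage (log2 fold change 0.24 ± 0.0805, limma, adjusted p = 0.049). It fell by 3.16 in SU-DHL-8 (difference 3.40 ± 0.103). Its Farage call was lost without each of 4 of the 6 libraries in turn (limma, adjusted p 0.106 to 0.137). That call was also lost as TPM, by median of ratios and with a replicate block (0.0582 to 0.0803). Dropping the filter (0.129) or the trended and robust prior (0.0752) lost it too. TFRC, the transferrin receptor, rose by 0.21 in Farage and fell by 2.62 in SU-DHL-8 (difference 2.83 ± 0.0733). MYADM, a myeloid-associated membrane protein, and IL2RA rose by 2.31 and 2.75 in Farage and changed by -0.62 and 0.01 in SU-DHL-8 (differences 2.93 ± 0.122 and 2.74 ± 0.122). In the other direction JCHAIN fell in Farage and changed by 0.49 in SU-DHL-8 (difference -3.02 ± 0.219), and PLEK (pleckstrin), already at 293 FPKM in Farage control, rose by 0.47 there and by 3.78 in SU-DHL-8 (difference -3.31 ± 0.0753). MPEG1, a perforin-like gene with DTX4 on the opposite strand, was at 59.7, 59.1 and 58.3 FPKM in control and 8.92, 9.01 and 9.05 after morusinol in Farage (log2 fold change -2.59 ± 0.038) and changed by -0.21 in SU-DHL-8 (difference -2.38 ± 0.0603). Over all genes, 598 were called in both lines in opposite directions with the difference called, 374 of them higher in Farage and 224 lower.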

How the data were processed

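RNA of 12 libraries (Farage and SU-DHL-8, control and morusinol, 3 each) was sequenced after total RNA extraction and a SMARTER mRNA kit, per the labels' protocols. The authors deposited 1 table of FPKM for 61466 Ensembl genes. The deposit came with aligner, counting rule and strand setting not given in the sources used here. Genome builds in the submitters' processing notes are the mouse builds GRCm38 and mm10, whereas the identifiers are human. Of these, 58297 (94.8%) matched GENCODE 29 (GRCh38), which supplied positions and gene classes. Symbols came from a separate list of gene names or, where it had none, from the deposit.

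FPKM values were transformed to log2(FPKM + 1). Genes with at least 1 FPKM in at least 3 of the 6 Farage libraries were tested in limma 3.58.1 (R 4.3.3, trended and robust variance, the 6 Farage libraries), with Benjamini-Hochberg adjustment over all 15207 genes and a threshold of 0.05. The difference between lines was an interaction term over 12 libraries. Errors are SD over 3 libraries for means and SE for fold changes. The fits were run on simulated data in which a small share of genes was changed by known amounts, with no difference in depth. That simulation cannot show how depth or scaling bears on the results. The estimated depth rests on steps of 1 fragment between low values. Only 3 libraries per group limit the precision.

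The members and the 64 gene lists were chosen with earlier results of these data known, so no list is independent evidence of its direction. Genes were named by rank among those with a symbol, a mean of at least 5 FPKM in the higher group, a call and no overlap between groups: the 15 rises and 15 falls of greatest log2 fold change, the 10 greatest gains and losses in FPKM, 5 non-coding RNAs and 5 line differences each way. Also named, without those conditions, were up to 6 members of each list by p and any called member against its list's majority, and ATF4, SREBF1, SREBF2, SRF, HSF1, MYC and NFE2L2. Some genes the rule gives are not reported here. Promoters came from RefSeq (GRCh38.p14) and were matched by symbol. Alternatives covered the pseudocount, filter, scaling, variance prior, libraries fitted, replicate block and each library left out.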

Additional observations from a re-analysis of the deposited data

Results flagged for a closer look

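For 9 of the genes named above the difference between the lines was given and called (limma interaction term, adjusted over 15207 genes, 3 libraries in each of 4 groups). The difference was called for 5497 of all genes tested (36.1%). Genes were named in part by the size of this difference, so their p-values are no independent support. The log2 fold change in Farage exceeded that in SU-DHL-8 by 3.40 for SPIB, 3.13 for STC2, 2.93 for MYADM, 2.83 for TFRC, 2.74 for IL2RA and 2.22 for CDK2. The difference was -3.31 for PLEK, -3.02 for JCHAIN and -2.38 for MPEG1. The highest adjusted p of the 9 was 3.95e-06, for JCHAIN.

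CDK2 and MYADM were called in both lines in opposite directions, at 0.83 and 2.31 in Farage and -1.39 and -0.62 in SU-DHL-8, and so was JCHAIN, at -2.53 and 0.49. PLEK rose in both lines, by 0.47 and 3.78.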

How the results depend on the processing

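Of 230 genes named, 219 kept their direction and side of the threshold under all 17 alternatives. The number of called genes, 6662, ranged from 5555 (of 39807 genes, with no filter) to 7470 (12 libraries fitted), and from 5498 to 6169 with 1 library left out. With a replicate block it was 5769, and the difference between lines was called for 4671 genes with the block and 5497 without it. After the mean of its group was taken from each library, same-numbered libraries had correlations of 0.029, -0.088 and -0.025 across genes. The largest such correlation, 0.132, joined control 2 and morusinol 3. With 3 libraries per group these values show no pairing by number but cannot decide whether libraries were handled in pairs. Genes at least 2-fold higher, 429, became 683 with a pseudocount of 0.1. Those at least 2-fold lower, 421, became 740 with it, 638 as TPM and 247 with at least 1 FPKM in all 6 libraries; the cause was not tested beyond the 11796 genes left in the last. Among uncalled genes, CD79A changed sign to 0.01 after rescaling by the protein-coding total, and PRF1 ranged from -0.21 to 0.05 with 1 library left out, the latter without morusinol replicate 3. The median of 15 calcium pumps and channels went from -0.02 to 0.04 with the same rescaling. The calls of BATF (12 libraries fitted), H2BC12 and SLC25A22 (replicate block), and TRBC2 (without morusinol replicate 1) were lost. With no filter those of HARS2 (limma, adjusted p 0.0805), HSF1 (0.0792), WARS2 (0.0552) and TRBC2 (0.056) were lost too. The median SE was 0.144 for genes with a mean of 1 to 5 FPKM and 0.0729 for those of 5 to 20 FPKM.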
